A study of Mus musculus with 9 samples.

Results

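The elastin, fibulin, fibrillin, lysyl oxidase and associated genes described here are 10 of the 54532 genes in the deposited table, chosen by name. They are Eln, Fbn1, Fbln1, Fbln2, Fbln5, Efemp1, Efemp2, Emilin1, Mfap4 and Lox, and each name matched 1 row. The names were put together with earlier results of these data known, in which Fbln5 stood among the largest rises after unloading. The values below are therefore a description, and the number of these genes past a threshold is no independent support for any direction.

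Kidneys of male, 4-month-old c57BL/6j mice were sequenced, with 3 libraries in each of 3 groups. Mice of the treated group were hindlimb unloaded and were given 4PBA (4-phenylbutyric acid, a chemical chaperone) intraperitoneally, 100 mg per kg each day, and their libraries are called PBA1 to PBA3. Mice of the unloaded group were hindlimb unloaded and received vehicle (HU1 to HU3), and ground controls had neither unloading nor treatment (GC1 to GC3). Hindlimb unloading, which lifts the hind limbs off the floor, is a model of disuse and of microgravity. Ground controls had no vehicle injections, so the difference between unloaded mice and ground controls does not separate unloading from vehicle. The labels used here state neither the length of unloading nor whether each library is 1 mouse, so the p-values measure the spread between these libraries.

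Elastic fibres give arteries and loose connective tissue their recoil. Cells secrete tropoelastin, the product of Eln, which is deposited on microfibrils of fibrillin and cross-linked by lysyl oxidase, while fibulin-4 (Efemp2) and fibulin-5 (Fbln5) help to bring enzyme, elastin and microfibril together. In the kidney such fibres lie mainly in the walls of arteries, and several of these proteins also occur in the interstitium and around glomeruli.

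Libraries held 7595631 to 15141784 reads assigned to genes, recovered from the values. Mitochondrial transcripts made up 15.2%, 13.7% and 67.1% of reads across PBA1 to PBA3, 68.7%, 79.3% and 63.7% across HU1 to HU3, and 18.9%, 14.8% and 49.7% across GC1 to GC3. PBA3 thus had a share within the range of the unloaded libraries, and no unloaded library had a share as low as any ground control. Reads outside the mitochondrial genome numbered 1568888 to 3037972 in unloaded libraries and 2887586 in PBA3, against 5780141 to 12893802 in the other 5. Kidney markers were detected in every group, although the summed level of 6 proximal tubule markers was 209 to 922 FPKM in 4-PBA libraries, 80.2 to 177 FPKM in unloaded libraries and 789 to 1005 FPKM in ground controls. The share of reads outside the mitochondrial genome that fell on pseudogenes, another property in which libraries can differ, was 4.83% in PBA3 and 3.73% to 7.54% in unloaded libraries, against 0.955% to 1.76% in the other 5. PBA3 also stood apart from its group over all genes, with a chi-square per degree of freedom of 127 and 139 to PBA1 and PBA2, against 30.8 to 56.0 to the unloaded libraries and 54.0 between PBA1 and PBA2; this measure also grows with depth. FPKM scale the reads of a gene by its length and by the library, so levels can be compared between genes. In whole tissue, fewer cells of a type and less RNA per cell cannot be told apart.

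The family did not move as a block after unloading. Of the 9 members tested, Fbln5, Emilin1, Fbln1 and Efemp2 rose against ground controls, Fbn1 had a fitted difference of similar size short of the threshold, and Eln, Efemp1, Lox and Mfap4 did not pass. The test was limma on log2(FPKM + 1) across 12642 genes, with a Benjamini-Hochberg adjusted p under 0.05 as the threshold. In that fit 10.2% of all genes tested passed, 5.32% upwards and 4.90% downwards, against 4 and 0 members, and nothing is read from the members' count since they were named with this comparison in view. The median log2 difference was 2.25 over the 9 members and -0.03 over all genes tested. Every unloaded library was above every ground control for 5 members, the 4 that passed and Fbn1, where 18.3% of all genes tested showed that order.

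**Figure D1:**
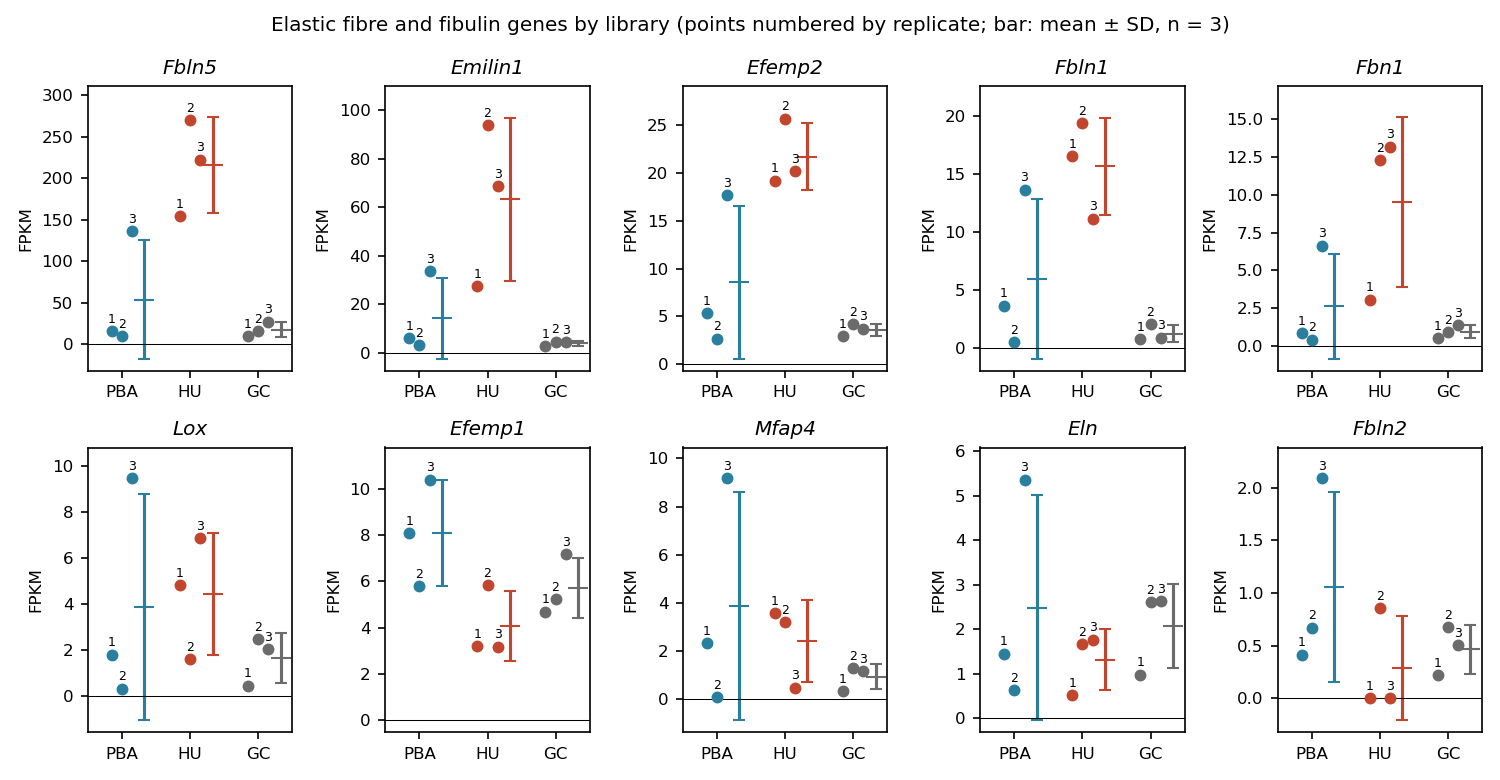
FPKM of the 10 members in each library, with replicate numbers beside the points and the mean ± SD (n = 3) of each group to their right; PBA is unloaded with 4-PBA, HU unloaded with vehicle and GC ground control. In the upper row every unloaded library lies above every ground control, and PBA3 lies above PBA1 and PBA2 in all 10 panels.

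The core of the fibre is made of elastin and fibrillin. Eln (ENSMUSG00000029675, mm10 chromosome 5, 134702593 to 134747323), which encodes tropoelastin, had 1.45, 0.630 and 5.37 FPKM in PBA1 to PBA3, 0.517, 1.67 and 1.77 FPKM in HU1 to HU3, and 0.977, 2.60 and 2.63 FPKM in GC1 to GC3. The groups overlapped, and the highest library was PBA3. Unloaded minus control, the log2 difference of Eln was -0.40 (95% interval -1.53 to 0.73, limma adjusted p = 0.627). HU1 and HU2 held only 25 and 42 reads of Eln, against 154 to 505 reads in the ground controls.

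Fbn1 (ENSMUSG00000027204, chromosome 2, 125300594 to 125507993) encodes fibrillin-1, the main microfibril protein. It had 0.849, 0.424 and 6.64 FPKM in PBA1 to PBA3, 3.08, 12.3 and 13.2 FPKM in HU1 to HU3, and 0.551, 0.912 and 1.40 FPKM in GC1 to GC3. Unloaded libraries were all above ground controls, with HU1 closest to them. Outside the unloaded group only PBA3 and GC3 reached 1 FPKM. Fbn1 thus met the filter on low values (1 FPKM in 3 or more libraries) through the group where it was high. The log2 difference, unloaded minus control, was 2.25 ± 0.66 (SE, limma adjusted p = 0.0579). Fbn1 passed with limma-voom on recovered reads (log2 difference 3.18, limma adjusted p = 0.0267), where 6.50% of all genes passed upwards. That was the largest difference among 18 alternative settings, of which 7 called Fbn1. The smallest was 0.81 (limma adjusted p = 0.539), with the share of mitochondrial reads as a covariate.

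Among the short fibulins, 3 close relatives built largely of calcium-binding EGF-like repeats, Fbln5 and Efemp2 rose and Efemp1 did not. Fbln5 (ENSMUSG00000021186, chromosome 12, 101746565 to 101819055, minus strand) encodes fibulin-5, which binds tropoelastin and integrins. It had 15.8, 9.26 and 136 FPKM in PBA1 to PBA3, 155, 269.8 and 222 FPKM in HU1 to HU3, and 9.92, 15.7 and 27.1 FPKM in GC1 to GC3. The unloaded libraries were the highest, with PBA3 next, not far below HU1, and GC3 after it. Group means were 216 FPKM (SD 57.9, n = 3) in unloaded mice and 17.6 FPKM (SD 8.71, n = 3) in ground controls, a ratio of 12.3. The log2 difference was 3.61 ± 0.82 (SE, limma adjusted p = 0.0282), which ranked 33 from the top among the 12642 genes.

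Efemp2 (ENSMUSG00000024909, chromosome 19, 5473973 to 5481853) encodes fibulin-4, which is needed for elastic fibre assembly in mice and binds lysyl oxidase. It had 5.31, 2.65 and 17.7 FPKM in PBA1 to PBA3, 19.2, 25.7 and 20.2 FPKM in HU1 to HU3, and 2.91, 4.18 and 3.69 FPKM in GC1 to GC3. The 3 unloaded values lay close together and above all others. The log2 difference, unloaded minus control, was 2.31 ± 0.50 (SE, limma adjusted p = 0.0255). In GENCODE release M21, where Efemp2 runs from 5473954 to 5482517, exons of Mus81 on the opposite strand overlap those of Efemp2. The overlap was not checked on the shorter deposited coordinates. No source used here says whether counting used strand, so reads in any shared bases may not be told apart. Mus81 itself was at 1.35 to 3.35 FPKM over the 9 libraries.

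Efemp1 (ENSMUSG00000020467, chromosome 11, 28853204 to 28926743) encodes fibulin-3, a relative that is abundant in loose connective tissue. It had 8.10, 5.80 and 10.4 FPKM in PBA1 to PBA3, 3.21, 5.84 and 3.18 FPKM in HU1 to HU3, and 4.69, 5.25 and 7.17 FPKM in GC1 to GC3. HU1 and HU3 were the lowest of the 9 libraries, but HU2 lay among the ground controls. Unloaded minus control, the log2 difference was -0.42 (95% interval -1.10 to 0.26, limma adjusted p = 0.373). With scaling by total reads, under which the median of all genes moved to -0.78, the difference of Efemp1 was -1.28 and passed (limma adjusted p = 0.0443). Scaled that way, Efemp2 missed the threshold (log2 difference 1.35, limma adjusted p = 0.0656). Fbln5 (2.57), Emilin1 (2.55) and Fbln1 (2.03) passed upwards, with smaller differences than in the main fit. Over all genes 16.1% passed downwards and 2.40% upwards under that scaling. Efemp1 was the highest member after Fbln5 in ground controls and the seventh in unloaded mice.

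The promoters of these 3 fibulins are shown because the genes are close relatives and their transcripts differed in the comparison. Each window runs from 250 bases before to 50 bases after a RefSeq transcript start on GRCm38.p6 (mm10), 5′ to 3′ on the gene's strand. The windows are chr12:101819070-101819369 (minus strand, the first of 2 for Fbln5), chr19:5473696-5473995 (plus strand, the first of 3 for Efemp2) and chr11:28852955-28853254 (plus strand, Efemp1). Capitals mark matches on either strand to the Sp1 box GGGCGG or the AP-1 site TGANTCA.
Fbln5: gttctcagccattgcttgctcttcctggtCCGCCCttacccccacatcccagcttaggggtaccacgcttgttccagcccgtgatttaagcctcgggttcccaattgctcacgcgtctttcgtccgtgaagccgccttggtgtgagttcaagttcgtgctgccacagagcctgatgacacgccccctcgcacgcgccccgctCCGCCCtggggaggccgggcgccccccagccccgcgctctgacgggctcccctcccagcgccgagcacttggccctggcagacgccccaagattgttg
Efemp2: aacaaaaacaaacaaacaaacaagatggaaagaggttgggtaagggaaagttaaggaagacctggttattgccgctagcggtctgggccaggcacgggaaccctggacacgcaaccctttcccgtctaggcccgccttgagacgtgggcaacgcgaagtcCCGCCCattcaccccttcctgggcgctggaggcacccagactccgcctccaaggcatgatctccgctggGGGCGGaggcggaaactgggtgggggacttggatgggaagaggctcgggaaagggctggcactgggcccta
Efemp1: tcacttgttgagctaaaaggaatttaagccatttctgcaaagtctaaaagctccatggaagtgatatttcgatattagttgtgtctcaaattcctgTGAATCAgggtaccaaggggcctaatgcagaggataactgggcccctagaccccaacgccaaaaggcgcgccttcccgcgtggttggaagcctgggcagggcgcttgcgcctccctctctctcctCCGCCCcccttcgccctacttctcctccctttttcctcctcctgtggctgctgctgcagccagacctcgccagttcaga
These Fbln5 and Efemp2 windows each held 2 Sp1 boxes and no AP-1 site, and the Efemp1 window held 1 Sp1 box and 1 AP-1 site, with no overlap between matches. The other windows differed: the second of Fbln5 held 0 Sp1 boxes, and the remaining windows of Efemp2 held 5 and 7, some of which overlap. Of all 32817 RefSeq windows of this length, 35.6% held an Sp1 box and 7.81% an AP-1 site. None of the 3 windows held the TATA box TATAAA, found in 13.6% of windows. GC content was 65.7%, 60.3% and 54.3% in the printed Fbln5, Efemp2 and Efemp1 windows, 48.7% in the second of Fbln5 and 76.0% and 78.3% in the others of Efemp2, against a median of 52.7% over all windows. A match is only a run of letters, and these libraries hold no measurement of factor binding. Windows were found for 7 of the 10 members.

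The long fibulins are Fbln1 and Fbln2. Fbln1 (ENSMUSG00000006369, chromosome 15, 85205949 to 85286535) encodes fibulin-1, found in elastic fibres and basement membranes. It had 3.69, 0.529 and 13.7 FPKM in PBA1 to PBA3, 16.6, 19.4 and 11.2 FPKM in HU1 to HU3, and 0.765, 2.08 and 0.920 FPKM in GC1 to GC3. All unloaded libraries exceeded all ground controls, whereas PBA3 exceeded HU3. The log2 difference, unloaded minus control, was 2.90 ± 0.67 (SE, limma adjusted p = 0.0292). Fbln2 (ENSMUSG00000064080, chromosome 6, 91212455 to 91272540), encoding fibulin-2, had the lowest mean of the 10 members in each group and was not tested, as only PBA3 reached 1 FPKM. It had 0.415, 0.671 and 2.09 FPKM in PBA1 to PBA3, 0, 0.857 and 0 FPKM in HU1 to HU3, and 0.218, 0.675 and 0.502 FPKM in GC1 to GC3. At the depth of HU1 and HU3 a count of 0 allows up to 0.0789 and 0.0694 FPKM of Fbln2 (3 reads, counting error only), below each ground control, while HU2 was above each of them.

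Of the microfibril-associated proteins, Emilin1 (ENSMUSG00000029163, chromosome 5, 30913402 to 30921277) encodes EMILIN-1, which lies between elastin and microfibrils. It had 6.06, 3.34 and 33.6 FPKM in PBA1 to PBA3, 27.5, 94.0 and 68.7 FPKM in HU1 to HU3, and 2.95, 4.63 and 4.48 FPKM in GC1 to GC3. The ground controls spanned a narrow range far below every unloaded library, and PBA3 lay above HU1. The mean was 63.4 FPKM (SD 33.6, n = 3) in unloaded mice and 4.02 FPKM (SD 0.933, n = 3) in ground controls, a ratio of 15.8. The log2 difference was 3.53 ± 0.71 (SE, limma adjusted p = 0.0205).

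Mfap4 (ENSMUSG00000042436, chromosome 11, 61485431 to 61488900) encodes a protein that binds microfibrils and tropoelastin. It had 2.31, 0.0681 and 9.18 FPKM in PBA1 to PBA3, 3.57, 3.18 and 0.460 FPKM in HU1 to HU3, and 0.321, 1.28 and 1.14 FPKM in GC1 to GC3. These values rest on few reads, 41, 19 and 6 in HU1 to HU3 and 3 in PBA2, and the groups overlapped. Its log2 difference, unloaded minus control, was 0.70 (95% interval -0.96 to 2.37, limma adjusted p = 0.556). Exons of Mapk7 on the opposite strand overlap those of Mfap4, and Mapk7 was at 0.804 to 2.88 FPKM.

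Lox (ENSMUSG00000024529, chromosome 18, 52516069 to 52529867) encodes lysyl oxidase, the copper enzyme that cross-links elastin and collagen. It had 1.80, 0.317 and 9.47 FPKM in PBA1 to PBA3, 4.80, 1.60 and 6.87 FPKM in HU1 to HU3, and 0.449, 2.47 and 2.05 FPKM in GC1 to GC3. The groups overlapped, as HU2 lay below GC2 and GC3, and PBA3 was highest. The log2 difference, unloaded minus control, was 0.98 (95% interval -0.63 to 2.59, limma adjusted p = 0.383). In release M21 opposite-strand genes also overlap exons of Lox, Eln and Fbn1.

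The calls of these 4 members depended on the libraries included, and their sizes did so much less. With 1 library left out the log2 difference stayed at 3.29 to 3.97 for Fbln5, 3.17 to 4.04 for Emilin1, 2.74 to 3.15 for Fbln1 and 2.18 to 2.40 for Efemp2. No member passed when GC1, GC2, GC3 or HU3 was left out, Emilin1 alone passed without HU2, and 5 passed without PBA3. Without HU1 Fbn1 passed and Fbln1 did not. Calls over all genes moved too, from 10.2% with every library to 0.546% without GC1, 1.82% without GC2, 0.997% without GC3, 5.29% without HU3, 8.17% without HU2 and 18.7% without PBA3. When the share of mitochondrial reads entered as a covariate, no member and 0.783% of all genes passed, and the log2 differences of the 4 became 1.89 for Emilin1, 1.55 for Fbln1, 1.32 for Fbln5 and 1.15 for Efemp2, against -0.98 for Efemp1 and -1.48 for Eln.

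**Figure D2:**
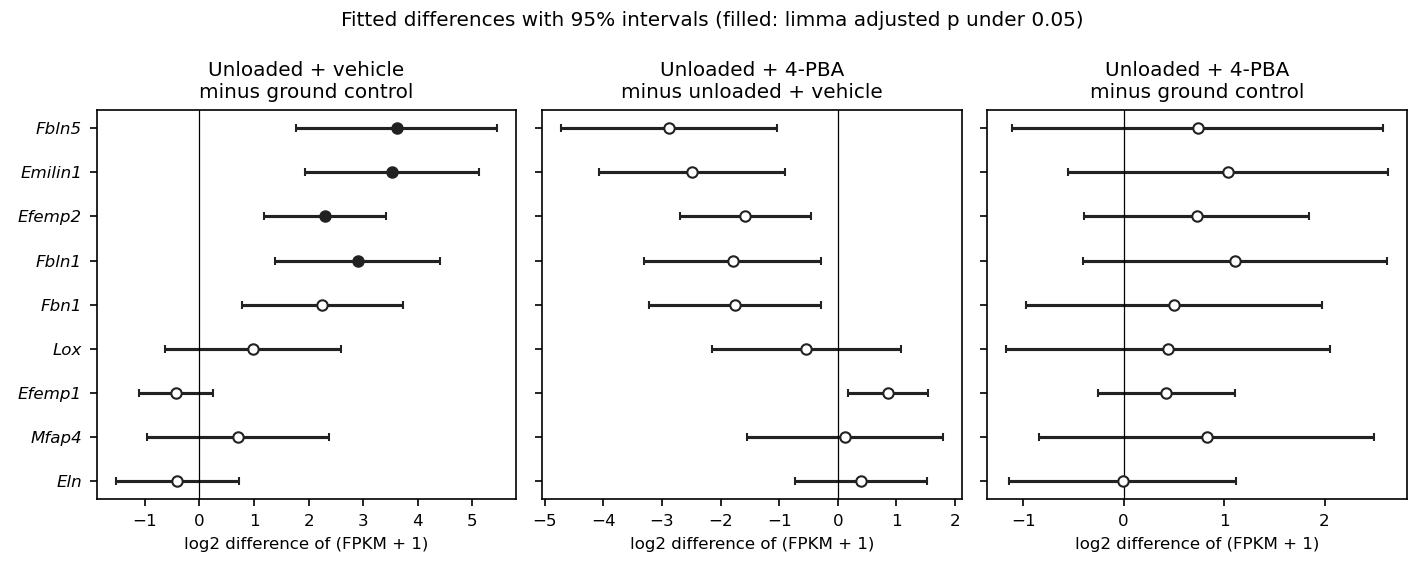
Fitted log2 difference of (FPKM + 1) with its 95% interval for the 9 tested members in each comparison; filled points passed a limma adjusted p of 0.05. The 4 filled points are all in the comparison of unloaded mice with ground controls.

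Ratios between members within 1 library do not depend on how that library was scaled. The ratio of Fbln5 to Eln was 10.9, 14.7 and 25.4 in PBA1 to PBA3, 299, 162 and 126 in HU1 to HU3, and 10.2, 6.04 and 10.3 in GC1 to GC3. PBA3, whose Fbln5 level was near that of HU1, had a ratio nearer to those of PBA1 and PBA2 than to those of the unloaded libraries. The same order held for Emilin1 to Eln, at 4.18 to 6.26 in 4-PBA libraries, 38.9 to 56.4 in unloaded libraries and 1.70 to 3.01 in ground controls. For Efemp2 to Efemp1 the ratio was 0.457 to 1.70 in 4-PBA libraries, 4.41 to 6.35 in unloaded libraries and 0.514 to 0.796 in ground controls. Lox to Eln gave no such separation, with 0.504 to 1.76 in 4-PBA libraries, 0.962 to 9.29 in unloaded libraries and 0.459 to 0.950 in ground controls. These ratios were chosen after the values were seen and carry no test, and the 25 reads of Eln in HU1 make its ratios imprecise.

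**Figure D3:**
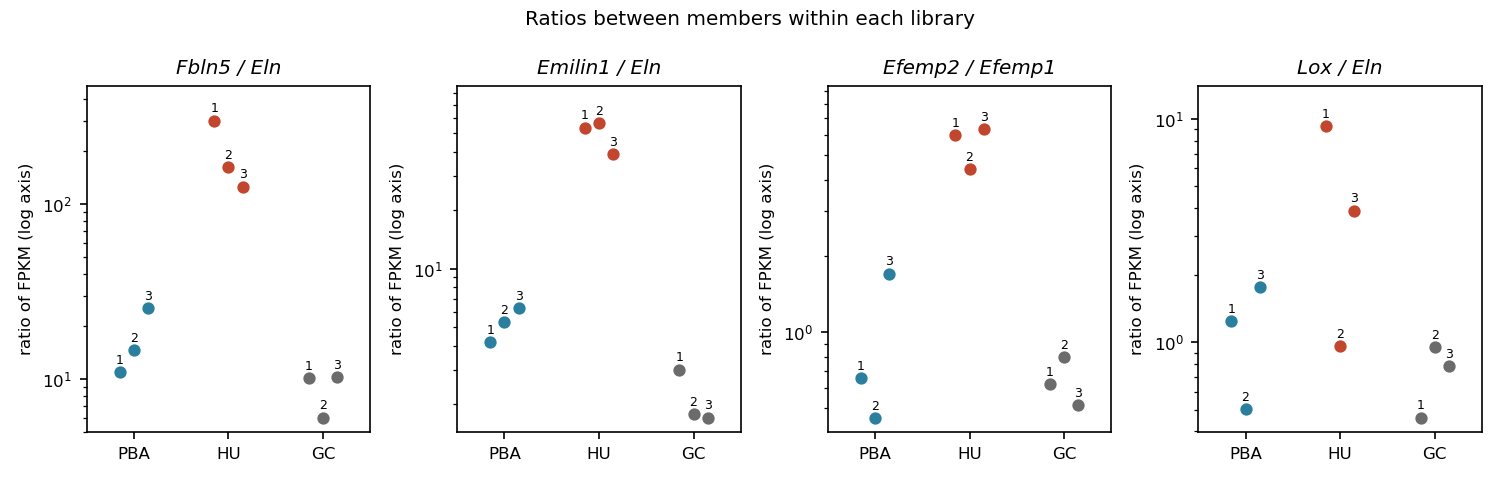
Ratios of FPKM between 2 members in each library, on log axes, with replicate numbers; groups as PBA (unloaded with 4-PBA), HU (unloaded with vehicle) and GC (ground control). In the first 3 panels every unloaded library lies above all others, and in the Lox to Eln panel HU2 lies among the 4-PBA libraries.

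The second comparison set 4-PBA-treated against vehicle-treated unloaded mice. No member passed in limma, where 2.69% of the 12642 genes did (1.16% upwards and 1.53% downwards), and 6 of the 9 members and 20.1% of all genes had an unadjusted p under 0.05. Of these 6, Fbln5 (log2 difference -2.88, 95% interval -4.72 to -1.03), Emilin1 (-2.49), Fbln1 (-1.79), Fbn1 (-1.75) and Efemp2 (-1.58) had values below 0. The sixth, Efemp1, had 0.85 (95% interval 0.17 to 1.53). Limma adjusted p was 0.0993 for Fbln5, 0.0988 for Emilin1 and 0.166 for Efemp1. Every 4-PBA library was below every unloaded library for Fbln5 and Efemp2, an order shown by 10.2% of all genes tested. The remaining members had 0.12 for Mfap4, -0.54 for Lox and 0.39 for Eln, with limma adjusted p of 0.944, 0.714 and 0.70. The unloaded libraries are shared with the first comparison, so opposite signs between both are partly built in.

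The second comparison turned on PBA3, which had the highest value of the treated group for 10 of 10 members, and PBA2 the lowest for 9. PBA3 was also the highest of all 9 libraries for 5 members, namely Fbln2, Efemp1, Eln, Lox and Mfap4. Without PBA3, 5.13% of all genes and 5 members passed downwards in limma: Fbln5 (log2 difference -4.01, limma adjusted p = 0.00232), Emilin1 (-3.37), Fbln1 (-2.61), Fbn1 (-2.50) and Efemp2 (-2.23). The mean of PBA1 and PBA2 was 12.5 FPKM for Fbln5, against 216 FPKM in unloaded mice. Limma-voom on recovered reads with all libraries called Efemp2, Emilin1 and Fbn1 lower, as it did 2.57% of all genes. With scaling by total reads Efemp1 passed upwards (log2 difference 1.64, limma adjusted p = 0.0379). Under that scaling the median of all genes moved from 0.02 to 0.71, and 4.71% of all genes passed upwards.

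The third comparison set 4-PBA-treated unloaded mice against ground controls. No member passed, as for 0% of all genes tested by limma, and 0 of 9 members had an unadjusted p under 0.05. Over all genes 165 had an unadjusted p under 0.05, and limma-voom called 0 genes. Log2 differences were 1.11 for Fbln1, 1.04 for Emilin1, 0.83 for Mfap4, 0.74 for Fbln5, 0.73 for Efemp2, 0.50 for Fbn1, 0.44 for Lox, 0.43 for Efemp1 and -0.01 for Eln. The intervals are wide, from -1.11 to 2.58 for Fbln5 and from -0.25 to 1.11 for Efemp1. Without PBA3 the log2 difference of Fbln5 was -0.39 and that of Fbn1 was -0.25. The groups overlapped for all 9 members tested, where they did not overlap for 8.00% of all genes tested.

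Levels within groups followed different orders. In ground controls Fbln5 was highest at 17.6 FPKM, followed by Efemp1 at 5.70 FPKM, Emilin1 at 4.02 FPKM and Efemp2 at 3.59 FPKM. Emilin1 and Efemp2 overlapped there, while Fbln5 and Efemp1 did not overlap with the next gene. Unloaded mice had Fbln5 at 216 FPKM, Emilin1 at 63.4 FPKM, Efemp2 at 21.7 FPKM and Fbln1 at 15.7 FPKM, and from Efemp2 downwards each gene overlapped with the next. Fbln5 made up 34.6% to 55.7% of the summed FPKM of the 10 members in 4-PBA libraries, 62.1% to 66.3% in unloaded libraries and 39.5% to 53.0% in ground controls. GC1 was the lowest ground control for all 10 members.

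Fibroblast markers moved with the members that rose, and other marker lists did so in part or not. The summed level of 8 fibroblast markers was 14.3 to 244 FPKM in 4-PBA libraries, with 244 FPKM in PBA3, 135 to 283 FPKM in unloaded libraries and 16.4 to 49.3 FPKM in ground controls, and all 8 had their highest group mean in unloaded mice. Endothelial markers (6) summed to 44.2 to 128 FPKM in 4-PBA libraries, 145 to 177 FPKM in unloaded libraries and 40.3 to 65.7 FPKM in ground controls, and 4 of the 6 had their highest group mean in unloaded mice. That sum was mostly Eng, and the other 5 summed to 18.5 to 28.2 FPKM in 4-PBA libraries, 16.1 to 45.9 FPKM in unloaded libraries and 17.3 to 26.9 FPKM in ground controls, which overlap. Smooth muscle markers (6) did not follow, with 39.7 to 224 FPKM in 4-PBA libraries, 30.1 to 46.2 FPKM in unloaded libraries and 41.5 to 78.1 FPKM in ground controls, and their highest sum was in PBA3. Adipocyte markers (4) summed to 51.4 FPKM in PBA3 and 43.9 FPKM in GC2, against 0.324 to 7.38 FPKM elsewhere. Podocyte markers (5) summed to 10.5 to 15.4 FPKM in unloaded libraries and 26.4 to 47.0 FPKM in ground controls. Markers of loop, distal tubule and collecting duct (5) summed to 201 to 330 FPKM and 390 to 571 FPKM. Urothelium markers (6) summed to 20.5 to 70.4 FPKM in 4-PBA, 2.31 to 21.6 FPKM in unloaded and 1.31 to 13.8 FPKM in control libraries. In the same order, macrophage markers (6) summed to 49.0 to 94.4, 21.2 to 60.0 and 40.7 to 56.2 FPKM. Liver markers (6) summed to 24.2 to 107, 13.4 to 90.9 and 58.0 to 114 FPKM. No marker of the fibroblast, endothelial or smooth muscle lists was at 0 throughout a group. The part of these cell types in the members' differences was not tested.

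Set against the summed fibroblast markers of the same library, Fbln5 had a ratio of 0.264 to 0.649 in 4-PBA libraries, 0.928 to 1.15 in unloaded libraries and 0.377 to 0.604 in ground controls. Efemp2 overlapped between groups on this scale, with 0.0724 to 0.186 in 4-PBA libraries, 0.0843 to 0.143 in unloaded libraries and 0.0749 to 0.177 in ground controls. Fbln1 overlapped too, with 0.0466 to 0.123 in unloaded libraries and 0.0187 to 0.0499 in ground controls. So did Fbn1, with 0.0228 to 0.0549 and 0.0219 to 0.0335. Emilin1, at 0.204 to 0.332 in unloaded libraries, lay above ground controls (0.0909 to 0.179) but overlapped with 4-PBA libraries (0.101 to 0.234). Eln was lowest in unloaded libraries, at 0.00383 to 0.00737, against 0.0220 to 0.0441 in 4-PBA libraries and 0.0533 to 0.0624 in ground controls. Efemp1 likewise had 0.0425 to 0.407 in 4-PBA libraries, 0.0133 to 0.0238 in unloaded libraries and 0.126 to 0.286 in ground controls. These ratios are a description chosen after the values were seen.

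The mitochondrial share and the pseudogene share given above also moved with part of the family. The 4 libraries with the highest share (HU1, HU2, HU3 and PBA3) were the 4 highest for 5 members, Fbln5, Emilin1, Efemp2, Fbln1 and Fbn1, and not for the other 5. How many of all genes show this order was not counted, so nothing particular to the family is read from it. As all unloaded libraries had a high share, no comparison with ground controls could be made within libraries of like share, and share and group cannot be told apart there. Beyond the fit with mitochondrial share as a covariate, the part of these shares, or of RNA quality, in the differences was not tested.

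**Figure D4:**
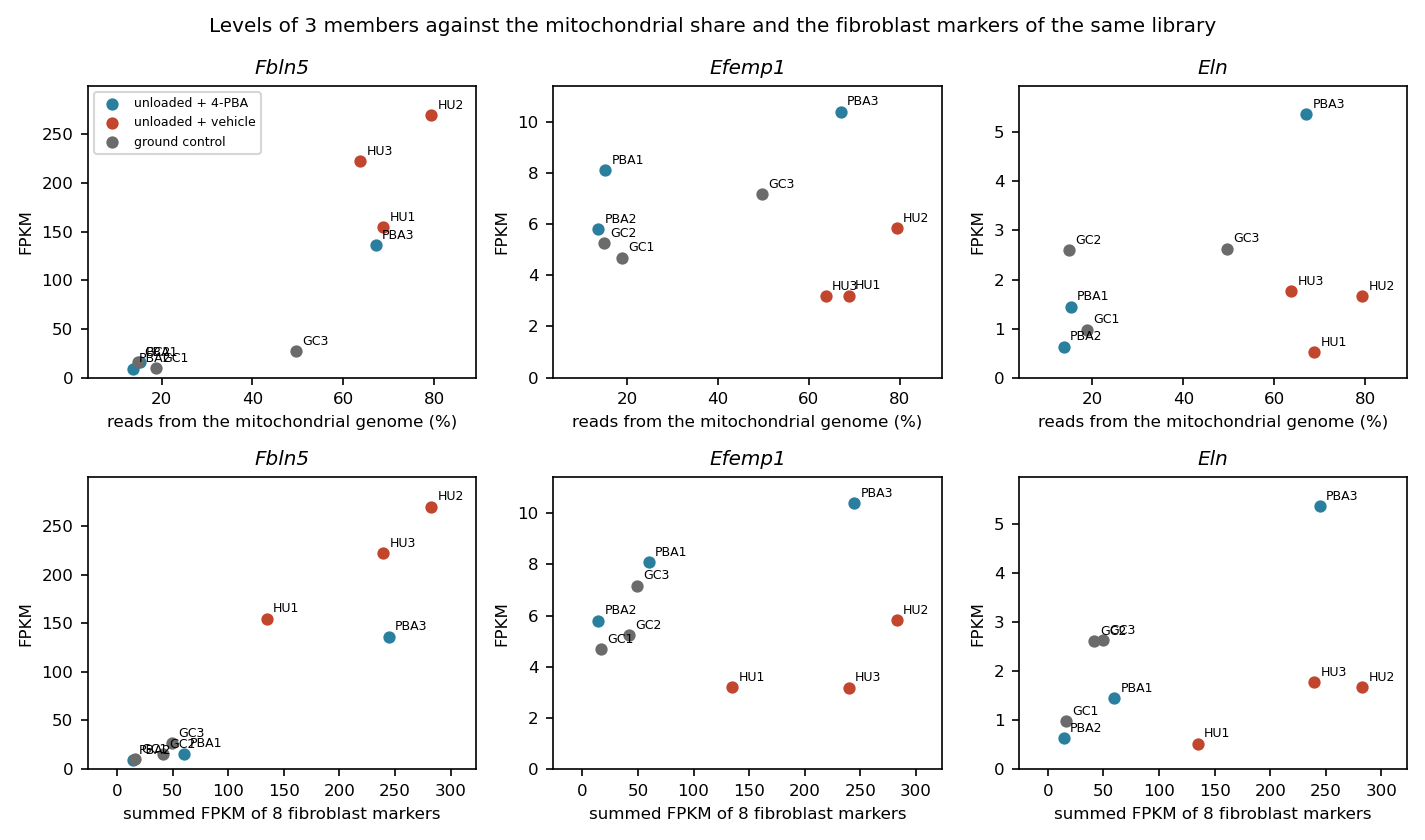
FPKM of Fbln5, Efemp1 and Eln in the 9 libraries against the percent of reads from the mitochondrial genome (upper row) and the summed FPKM of 8 fibroblast markers (lower row). PBA3 lies near the unloaded libraries for Fbln5 but above them for Efemp1 and Eln.

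Other genes of elastic fibres and microfibrils were listed with earlier results known, so their counts are no independent support. Of 25 further genes, 13 were tested and 5 rose in unloaded mice against ground controls, with 0 lower, where 5.32% of all genes rose, and the median log2 difference was 1.71 against -0.03 over all genes tested. Ltbp4, which encodes a latent TGF-beta binding protein that also takes part in elastic fibre assembly, averaged 72.7 FPKM (SD 39.6) in the 3 unloaded libraries and 9.27 FPKM (SD 5.05) in the 3 ground controls, with a log2 difference of 2.79 (limma adjusted p = 0.0374). Its relative Ltbp1 averaged 7.60 FPKM (SD 1.97) in unloaded mice and 1.11 FPKM (SD 0.622) in ground controls, with a log2 difference of 2.04 (limma adjusted p = 0.0158). The fibulin-7 gene Fbln7 (log2 difference 2.12), the lysyl oxidase relative Loxl2 (2.00) and Adamtsl4 (1.71), encoding a protein that binds fibrillin-1, also rose. Outside the unloaded group Adamtsl4 reached 1 FPKM only in PBA3. It thus met the filter on low values through the group where it was high, and its rise is a description only. Adamtsl2 (2.49, limma adjusted p = 0.0630) and Loxl1 (2.32, limma adjusted p = 0.0683), which encodes a lysyl oxidase relative tied to elastin, did not pass in limma. Limma-voom called both higher, as it did 6.50% of all genes. In 4-PBA against unloaded mice 0 of 13 passed in limma, and 6 had an unadjusted p under 0.05 (20.1% of all genes did). Limma-voom called Adamtsl4, Loxl2 and Ltbp1 lower, as it did 2.57% of all genes. Ltbp4 had -2.14, Adamtsl2 -2.00, Loxl1 -1.56 and Ltbp1 -1.47 there. In 4-PBA mice against ground controls 0 of 13 passed in limma, 0 had an unadjusted p under 0.05 and limma-voom called 0, and the largest values were 0.77 for Loxl1, 0.71 for the microfibril gene Mfap2, 0.68 for Fbln7 and 0.65 for Ltbp4.

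Among 9 proteases able to cleave elastin 5 were tested, and Ctsk, encoding cathepsin K, was the 1 that rose in unloaded mice, where 5.32% of all genes did (log2 difference 3.58 ± 0.69, SE, limma adjusted p = 0.0184). Ctsk had 3.87, 1.38 and 19.4 FPKM in PBA1 to PBA3, 12.6, 35.3 and 22.6 FPKM in HU1 to HU3, and 0.952, 1.46 and 0.423 FPKM in GC1 to GC3. The gelatinase gene Mmp2 (2.09), Mmp14 (1.18) and Ctss (0.27) did not pass. Of 10 integrin genes whose products bind fibulin-5, fibrillin-1 or their partners 8 were tested, and Itga8 (2.70, limma adjusted p = 0.0281) and Itgb1 (2.10, limma adjusted p = 0.0255) rose, 2 of 8 against that same 5.32%. Itgb1 averaged 103 FPKM (SD 27.6) in unloaded mice and 23.4 FPKM (SD 6.79) in ground controls. Itga9 (1.27) and Itgb5 (0.95) did not pass in limma, and limma-voom called Itga9 higher, as it did 6.50% of all genes. In 4-PBA against unloaded mice 0 of these proteases and integrins passed in limma, with an unadjusted p under 0.05 for 1 of 5 and 3 of 8 against 20.1% of all genes. Limma-voom called Ctsk and Itga8 lower there, as it did 2.57% of all genes. The largest values there were -1.87 for Ctsk and -2.15 for Itga8. In 4-PBA mice against ground controls 0 passed in limma. An unadjusted p under 0.05 was seen for 1 of 5 proteases, Ctsk (log2 difference 1.70), and 0 of 8 integrins, against 1.31% of all genes.

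**Figure D5:**
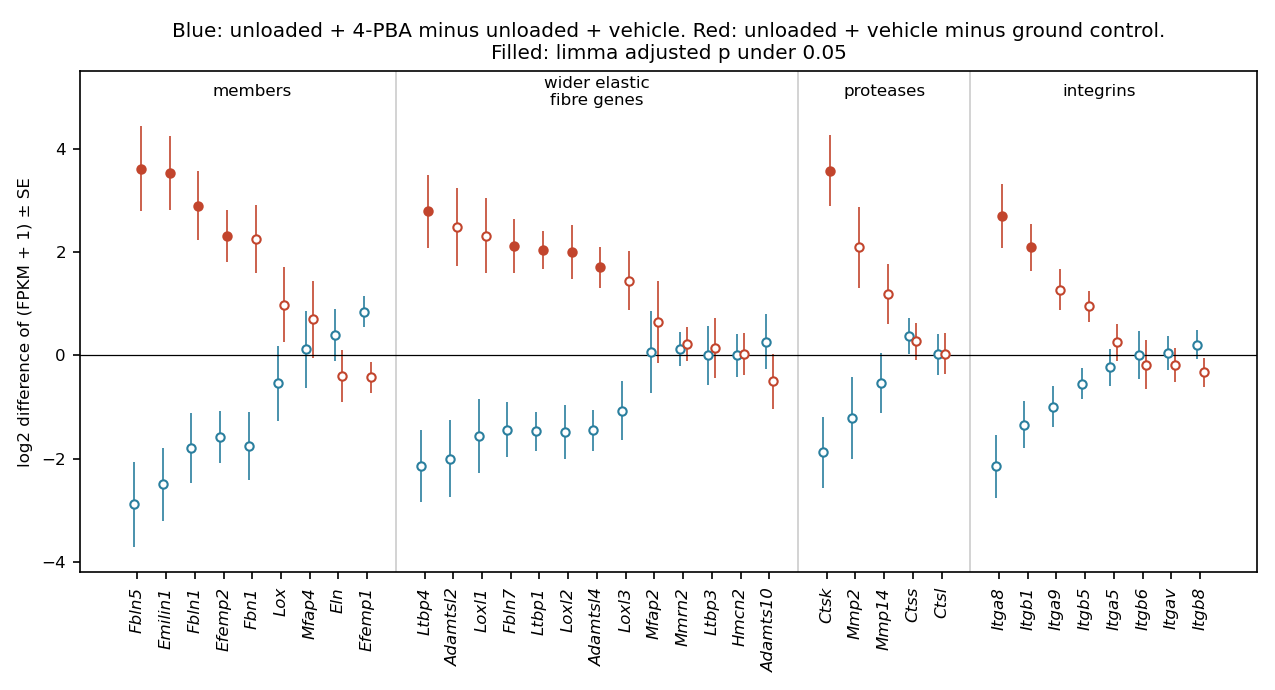
Log2 difference of (FPKM + 1) ± SE for the tested genes of each list, with unloaded plus 4-PBA minus unloaded plus vehicle in blue and unloaded plus vehicle minus ground control in red; filled points passed a limma adjusted p of 0.05. All filled points are red and above 0, from 1.71 for Adamtsl4 to 3.61 for Fbln5.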

How the data were processed

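Poly(A)-selected, directional, paired-end RNA libraries of kidney were made, per the labels' protocols. CASAVA, cutadapt, HISAT2 and mm10 are named per the submitters' processing notes, while their versions and the counting tool are not stated in the labels. The authors deposited 1 column of values per library, taken here as FPKM, and gene lengths. No header names the unit or the library total behind it, but each value times gene length was a whole multiple of 1 constant per library for 100% of values above 0 (tolerance 0.01), which gave the reads. Rescaled, the log2 difference of Fbln5, unloaded minus control, was 2.57 by total reads and 3.83 by non-mitochondrial reads, against 3.61 as deposited.

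From these values, limma 3.58.1 (R 4.3.3, with a mean-variance trend) was run on log2(FPKM + 1) over genes that reached 1 FPKM in 3 or more libraries, with all 9 libraries in 1 fit of 3 groups. This scale understates the change of low genes. Adjusted p-values are Benjamini-Hochberg values over all genes tested. The code was tested on simulated data. Alternatives covered the pseudocount, the filter, scaling, limma-voom on recovered reads, the libraries in the fit, the mitochondrial share, a replicate block and each library left out. Leaving out both PBA3 and GC3 was chosen after seeing the data.

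The members and lists were chosen with earlier results of these data known. All members were named, and of each other list the genes past the threshold and up to 4 with the largest differences. Coordinates are those of the deposited table, and 8 of 10 members have the same in GENCODE release M21. Promoters are from RefSeq (GRCm38.p6). Figures used Python 3.11.15 and matplotlib 3.10.9.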

Additional observations from a re-analysis of the deposited data

How the results depend on the processing

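The count of 4 members higher in unloaded mice than in ground controls became 0 without a filter on low values and 0 with the mitochondrial share as a covariate, and ranged from 0 to 5 with 1 library left out. Without the filter the log2 differences were the same (3.61 for Fbln5) and 30407 genes were tested in place of 12642. Over all genes 0.783% passed without the filter and 0.783% with the covariate, against 10.2% in the main fit. With 1 library left out the sizes stayed close to those with all libraries and there were fewer libraries in the fit, whereas with the covariate the sizes were smaller (1.32 for Fbln5), and the cause was not tested. With 4-PBA against unloaded mice, the count of 0 became 1 with scaling by total reads, 3 with limma-voom and 5 with both PBA3 and GC3 left out, and ranged from 0 to 5 with 1 library left out. Calls over all genes rose too, from 2.69% to 5.71% with that scaling, 3.63% with limma-voom and 8.84% with both left out. With 1 library left out they ranged from 0.285% to 10.4%. With 4-PBA against ground controls the count of members was 0 under all alternatives run.

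Over the 9 tested members, 3 comparisons and 18 alternatives, 24 values changed sign, each in a comparison that the member had not passed. Unloaded minus control, the covariate gave -0.30 for Lox and -0.91 for Mfap4. For 4-PBA minus unloaded, it gave 0.61 for Lox, Mfap4 had -0.28 with a pseudocount of 0.1, -1.20 with limma-voom and -0.69 without PBA3 and GC3, and Eln had -0.16 without both. With 1 library left out the ranges there were -0.16 to 0.82 for Eln, -1.36 to 0.14 for Lox and -0.69 to 0.94 for Mfap4. For 4-PBA minus control, leaving out both gave -0.040 for Fbln5, -0.086 for Fbn1 and -0.22 for Lox, limma-voom gave -0.34 for Lox and -0.15 for Mfap4, and scaling by non-mitochondrial reads gave 0.069 for Eln. With 1 library left out the ranges there were -0.39 to 1.48 for Fbln5, -0.57 to 0.42 for Eln, -0.25 to 0.97 for Fbn1 and -0.37 to 1.12 for Lox.

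Libraries of different groups share replicate numbers in the labels, which do not say that a number marks a shared batch. Same-numbered libraries deviated together with correlations from -0.20 to 0.29, so the numbers were not taken as pairs. With the number as a replicate block, 5 members passed in unloaded mice against ground controls, 0 in 4-PBA against unloaded mice and 0 in 4-PBA against ground controls. Over all genes 7.15% passed with the block in unloaded mice against ground controls, fewer than the 10.2% of the main fit. Calls over all genes were also fewer than in the main fit in 4-PBA against unloaded mice, and stayed at 0% in 4-PBA against ground controls. Depth limits Eln, Lox, Mfap4 and Fbln2 most, since single unloaded libraries held 25 or fewer reads of each.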

Other observations

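The elastic fibre genes Mfap5 and Adamtsl5, both below the filter, had their highest level in PBA3. Mfap5, which encodes a microfibril protein, had 0.96, 0.085 and 4.69 FPKM in PBA1 to PBA3, 0, 1.34 and 0.37 FPKM in HU1 to HU3, and 0.043, 0.326 and 0.153 FPKM in GC1 to GC3. Adamtsl5 had 2.78 FPKM in PBA3, against 0 to 1.36 FPKM in the unloaded libraries. Emilin3 and the neutrophil elastase gene Elane were listed at 0 in all 9 libraries.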
